A study of Mus musculus with 29 samples.

Results

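The left ventricle (LV) of *Rage-/-* mice was compared between Old and Young animals. The 11 arrays were taken by their titles, 6 from Old and 5 from Young *Rage-/-* mice, of 29 arrays in the series, and every probe that passed the detection filter entered the comparison. The series measured the LV transcriptome of female C57BL/6N mice, wild type (WT) or *Rage-/-*, at 10 weeks (Young), 12 months (MA) and 21 months (Old) on MouseWG-6 v2.0 BeadChips, with 1 array for each mouse. All mice were perfused with phosphate-buffered saline before the heart was frozen, and no treatment was compared. The deletion is labelled only as *Rage-/-*, with no cell-specific promoter or Cre named. The methods name a commercial supplier for the WT mice and say nothing of littermates, and Young and Old hearts came from different animals. The question was which LV transcripts differ between 10 weeks and 21 months of age when the receptor is absent.

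RAGE, the product of *Ager*, is a cell-surface receptor that binds glycated proteins, S100 proteins and HMGB1 and signals to NF-kappaB. In the ageing ventricle, myocytes under load raise the expression of natriuretic peptides and of other genes of fetal muscle, resident leukocytes and complement take part in low-grade inflammation, and *Cdkn1a* (p21) is a known mark of cells that have left the cell cycle. The heart also holds its own circadian clock, in which CLOCK and BMAL1 bind the E-box sequence and drive genes such as *Dbp*, *Tef*, *Per2* and *Ciart*, so that their level depends on the hour of collection.

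The labels of the 11 arrays were checked first. A probe without a gene name was taken to read EGFP, a fluorescent marker, because its mean over the arrays matched that of the study's EGFP row, and it was detected in 11 of 11 *Rage-/-* arrays and in 0 of 14 WT arrays. *Adgrf5*, which encodes an adhesion receptor of endothelium, was detected in 0 of 11 and in 14 of 14. *Ager* had 0 probes among those tested. The ventricular genes *Myh6*, *Myl2*, *Myl3*, *Tnni3*, *Ryr2* and *Pln* were bright in all 11 arrays and none passed the test, whereas the atrial genes spread widely within each group, with *Sln* between 4.48 and 11.24 in Young and between 4.36 and 11.87 in Old LV on the log2 scale. From 9125 to 14196 probes were detected per array. Old replicates 1 to 4 shared BeadChip 1 with Young replicate 5, and the other Young mice lay on BeadChips 2 and 3. Old replicates 5 and 6 lay on BeadChip 5, called the later BeadChip below only for its higher barcode number, since the labels give no date. On it bright probes stood 10.9 to 14.4 times above background, against 3.03 to 5.83 in Old replicates 1 to 4 and 2.69 to 6.69 in Young mice. The age groups therefore met on 1 BeadChip only, as 4 Old mice against 1 Young mouse. The dimmest arrays of their groups were Young replicate 4 (2.69 times, 9344 probes detected) and Old replicate 2 (3.03 times, 9125 probes detected).

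Between Young and Old *Rage-/-* LV, 492 of 13277 probes (3.71%) differed at an adjusted p below 0.05 in the limma fit, of which 290 (2.18% of the probes tested) were higher and 202 (1.52%) were lower in Old LV. A further view by gene, with the brightest probe of each, gave 178 of 8189 genes higher (2.17%) and 153 lower (1.87%), and the median log2 difference over all genes was -0.02. The called probes covered 389 named genes, and 75 called probes had no gene name. Of the 492 probes, 104 changed by more than 1 on the log2 scale, 79 upward and 25 downward. Old and Young values did not overlap at all for 169 called probes, 111 higher and 58 lower, and for 2.88% of all probes tested. With the BeadChip as a fixed block in place of the surrogate variables, 132 probes were called and 55 of the 492 were among them, while 463 kept their direction. With the BeadChip as a random block the count was 125, of which 112 were among the 492. BeadChip 1 alone held 4 Old mice and 1 Young mouse that are among the 11, so only sizes are given for it. There 474 of the 492 differences kept their direction and 18 did not. The log2 difference was 2.35 for *Nppb*, 2.81 for *Serpina3n*, 2.18 for *Ankrd23*, 1.21 for *Cdkn1a*, 1.69 for *C4b*, 1.42 for *Icam1* and -1.73 for *Dbp*. For the called genes *Scara5*, *S100a11* and *Ptgds* it was 0.01, 0.04 and 0.04. The median of the atrial genes was 1.4 there, against -0.23 in the fit of all arrays.

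*Serpina3n*, *Tnfrsf12a*, *Cdkn1a*, *Nppb* and *Ankrd23* were among the 12 largest rises of called genes whose groups did not overlap. The rule asked for separate groups, so the separation of the 12 is a description and not further evidence. *Nppb*, which encodes B-type natriuretic peptide, stood at a normalized log2 intensity (log2 level below) of 11.01, 10.72, 10.86, 10.49 and 10.86 in the 5 Young mice, and its lowest, median and highest log2 levels in the 6 Old mice were 12.51, 13.09 and 13.66. The Old values ran from 12.68 to 13.66 on BeadChip 1 and were 12.51 and 13.16 on BeadChip 5. The level was 5.19-fold higher in Old LV (log2 difference 2.38, SE 0.31, adjusted p = 7.25e-05). *Serpina3n*, a secreted inhibitor of serine proteases induced in the acute phase, had log2 levels of 5.21, 6.40, 6.30, 6.65 and 6.12 in Young LV and 7.82, 8.71 and 10.34 in Old LV. The Old mice were spread over a wide range without touching the Young values, and the change was 6.87-fold (log2 difference 2.78, SE 0.37, adjusted p = 9.99e-05). *Tnfrsf12a*, the receptor of the cytokine TWEAK, had log2 levels of 7.86, 7.42, 7.67, 5.89 and 7.84 in Young LV and 8.64, 10.12 and 10.46 in Old LV. Young replicate 4 was low, and the Old mice of the later BeadChip were the lowest of their group but above all Young mice (4.86-fold, adjusted p = 5.64e-05).

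*Ankrd23*, a stretch-responsive ankyrin repeat protein of the sarcomere, had the smallest adjusted p of these genes. Its log2 levels were 8.85, 8.61, 8.78, 8.45 and 8.25 in Young LV and 10.13, 10.54 and 10.83 in Old LV. The groups were far apart, and the change was 3.47-fold (log2 difference 1.79, SE 0.18, adjusted p = 2.82e-06). *Cdkn1a* stood at log2 levels of 6.04, 6.29, 6.53, 7.50 and 7.57 in Young LV and at 7.76, 8.87 and 9.23 in Old LV. The lowest Old mouse was close to the highest Young mouse, and the change was 4.58-fold (adjusted p = 0.000451). *Nppb*, *Serpina3n*, *Tnfrsf12a* and *Ankrd23* passed the test with the BeadChip as a fixed block, and *Cdkn1a* did not (log2 difference 1.75, adjusted p = 0.0684).

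**Figure D1:**
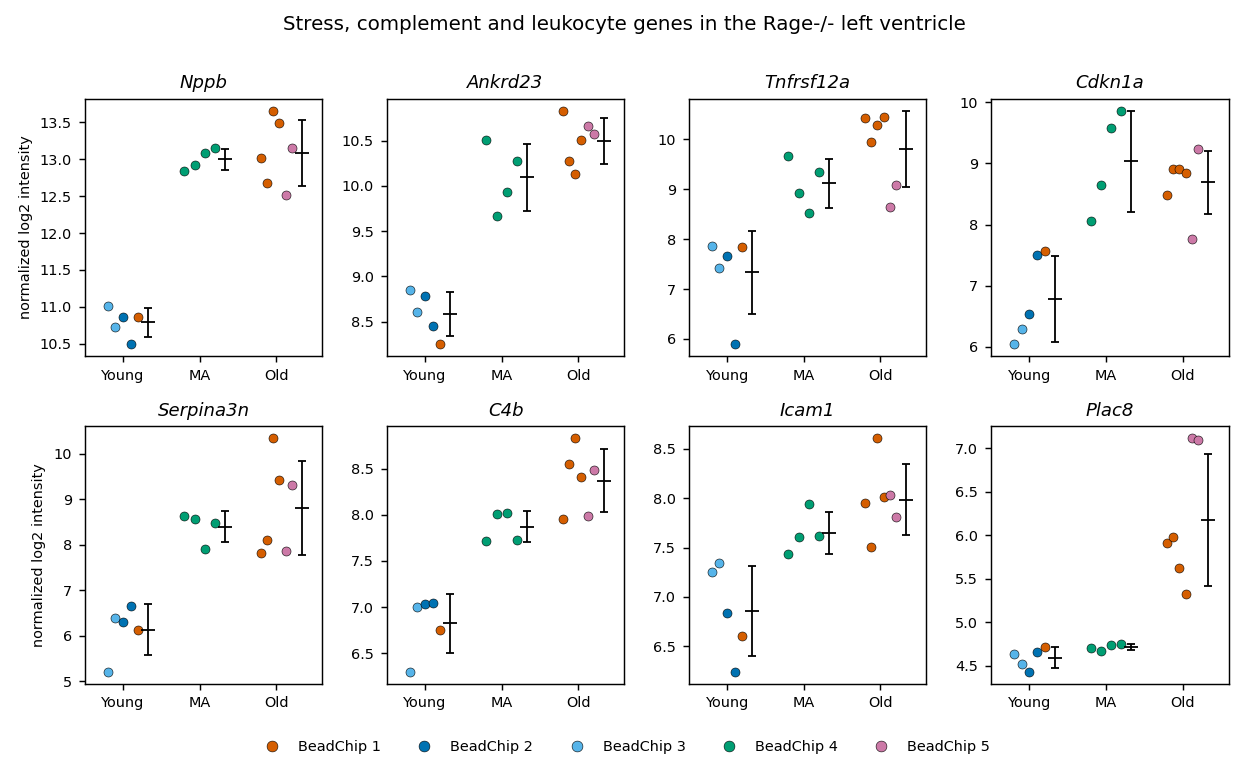
Normalized log2 intensity of 8 genes (vertical axes) in Young, MA and Old *Rage-/-* LV (horizontal axes), with 1 point per mouse coloured by BeadChip and a bar for the mean and SD of each age. All 6 Old mice sat above all 5 Young mice for each of the 8 genes, and *Plac8* was low in the MA mice while *Nppb* and *Serpina3n* were high in them. The naming rule required that separation for *Nppb*, *Ankrd23*, *Tnfrsf12a*, *Cdkn1a* and *Serpina3n*.

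The window of 250 bases before the start of *Nppb* (GRCm38.p6, chr4:147985650-147985899, plus strand, RefSeq) is shown because this cardiac hormone gene is a classical marker of load and was called with both forms of the BeadChip block. Capitals mark an M-CAT element (CATTCC on either strand, here read as GGAATG) at -105, a GATA element (AGATAA, either strand) at -84 and a TATA box (TATAAA) at -31, counted from the start. Of 32851 such windows, 12.6% held the M-CAT letters, 9.99% the GATA letters and 12.4% the TATA letters.
Nppb: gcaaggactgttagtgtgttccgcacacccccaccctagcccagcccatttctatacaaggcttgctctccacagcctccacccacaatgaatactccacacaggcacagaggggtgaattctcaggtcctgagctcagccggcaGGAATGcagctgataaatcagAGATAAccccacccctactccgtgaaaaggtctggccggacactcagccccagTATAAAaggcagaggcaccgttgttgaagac

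Of 33 genes listed for angiotensin, endothelin and natriuretic peptide signaling, 16 were measured. *Nppb*, *Rcan1*, *Ptgds* and *Edn1* were higher and 12 did not pass the test (25% called, against 4.04% of all genes), with 9 of the 16 differences above 0 and a median log2 difference of 0.32 against -0.02 over all genes. *Rcan1*, an inhibitor of calcineurin that the calcineurin pathway itself induces, had log2 levels of 9.68, 9.83, 9.94, 9.88 and 10.00 in Young LV and 10.19, 10.78 and 11.34 in Old LV. No Old mouse overlapped a Young mouse (1.97-fold, adjusted p = 0.000971). *Ptgds*, a prostaglandin D2 synthase, was 1.85-fold higher (adjusted p = 0.032) with overlapping groups, and leaving out any of 5 single mice ended its call. *Edn1*, which encodes the vasoconstrictor endothelin-1, was called at 1.68-fold (adjusted p = 0.0449) although its group means before adjustment for surrogate variables differed by only 0.16, and leaving out any of 8 single mice ended that call.

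Of the 28 listed contractile and fetal muscle genes, 24 were measured. *Nppb* and *Myh7* were higher and *Myom2* was lower (12.5% called, against 4.04% of all genes). *Myh7*, the beta myosin heavy chain of the fetal ventricle, was not detected in any Young mouse, with log2 levels of 4.71, 4.82, 4.95, 4.89 and 5.28, and reached 4.52, 6.66 and 7.77 in Old LV. It was detected in 5 of 6 Old mice, and Old replicate 2 lay below all Young mice. The level was at least 1.68-fold higher (adjusted p = 0.0234), but the call ended with the BeadChip as a fixed block (adjusted p = 0.571). *Myom2*, which encodes M-band protein of the sarcomere, was lower in all 6 Old mice than in any Young mouse (1.49-fold, adjusted p = 0.0305). *Nppa*, which encodes the atrial natriuretic peptide, had a log2 difference of -0.00073, and neither it nor *Ankrd1* (0.37) or *Myh6* (0.02) passed the test with its brightest probe.

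Several others of the 12 came from genes that no Young array detected, so that the fold is a lower bound. Here the Young level was set to the lowest signal among probes well above background on the same array wherever that was higher than the probe itself. *Klk1b26*, a member of the tandem kallikrein cluster whose near-identical copies may share its signal, had log2 levels of 4.57, 4.61, 4.79, 4.92 and 5.28 in Young LV and 6.07, 7.69 and 8.99 in Old LV. All Old mice lay above all Young mice, and the level was at least 3.45-fold higher (adjusted p = 2.21e-05). *Cyp2b10*, a cytochrome P450 best known from drug metabolism in liver, had log2 levels of 4.43, 4.55, 4.75, 4.78 and 4.63 in Young LV and 6.16, 7.18 and 7.86 in Old LV. The Young values lay within a narrow background range, and the level was at least 2.54-fold higher (adjusted p = 4.15e-05). *Csprs*, from a locus repeated in the mouse genome, was at least 3.11-fold higher (adjusted p = 0.000507), and *Tmprss13*, a membrane-bound serine protease, at least 1.78-fold (adjusted p = 0.00204). *Cdh4*, which encodes R-cadherin, was 4.47-fold higher (adjusted p = 6.31e-05), with log2 levels of 5.85, 6.83, 6.26, 5.25 and 7.10 in Young LV and 7.62, 8.42 and 8.64 in Old LV. With the BeadChip as a fixed block *Klk1b26*, *Cyp2b10* and *Tmprss13* were still called, whereas *Csprs* (adjusted p = 0.0574) and *Cdh4* (adjusted p = 0.0818) were not.

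Of 30 listed complement genes 13 were measured, of which 5 were higher in Old *Rage-/-* LV, *C4b*, *C4a*, *Masp1*, *C1qc* and *C1qb*, and 8 did not pass the test (38.5% called, against 4.04% of all genes). The median over the 13 log2 difference was 0.61, against -0.02 over all genes and -0.03 for the same 13 genes in WT. *C4b*, which encodes the component shared by the classical and lectin pathways, had log2 levels of 6.30, 7.0, 7.03, 7.05 and 6.75 in Young LV and 7.95, 8.45 and 8.83 in Old LV. All Old mice were above all Young mice, and the change was 3.16-fold (log2 difference 1.66, SE 0.19, adjusted p = 1.35e-05). The near-identical paralog *C4a*, whose probes may share signal with *C4b*, had log2 levels of 5.63, 6.66, 6.77, 7.14 and 6.31 in Young LV and 7.92, 8.30 and 8.80 in Old LV (3.41-fold, adjusted p = 6.31e-05). A second *C4a* probe gave 4.0-fold (adjusted p = 0.00016). The groups were separate for all 3 probes. *Masp1*, which encodes a protease that starts the lectin pathway, was 1.97-fold higher (adjusted p = 0.00813), but a fixed BeadChip block ended its call (adjusted p = 0.613), and its second probe did not pass the test (log2 difference 0.39, adjusted p = 0.235). Without the 2 Old mice on the later BeadChip, 3 of the 13 complement genes were called, and with the fixed block 2.

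The genes of the C1q complex, *C1qc* and *C1qb*, belong both to complement and to the macrophage list. *C1qc* had log2 levels of 7.43, 8.09, 7.53, 6.35 and 7.43 in Young LV and 8.09, 8.36 and 8.85 in Old LV, where the lowest Old mouse touched the highest Young mouse (1.74-fold, adjusted p = 0.0367). Of 34 macrophage and monocyte markers 25 were measured and 6 were higher, namely *Plac8*, *Gpnmb*, *Cd14*, *Fcer1g*, *C1qc* and *C1qb*, with none lower and a median of 0.27 (24% called, against 4.04% of all genes). *Csf1r* (log2 difference -0.07), *Lyz2* (-0.12) and *Adgre1* (0.22), which define the lineage, did not pass the test. In bulk tissue, more cells of a type and more RNA per cell cannot be told apart. *Gpnmb*, a glycoprotein of lipid-laden macrophages, had log2 levels of 5.20, 5.85, 5.60, 5.11 and 5.97 in Young LV and 6.35, 6.68 and 7.61 in Old LV (2.68-fold, adjusted p = 0.000706). The groups did not overlap, and 2 of 5 Young mice had a detected level. *Cd14*, the lipopolysaccharide co-receptor, was 1.95-fold higher (adjusted p = 0.0135). Without the 2 Old mice on the later BeadChip 2 macrophage genes were called, and with the BeadChip as a fixed block 1.

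*Plac8*, which encodes a small cysteine-rich protein of leukocytes, had log2 levels of 4.64, 4.52, 4.43, 4.66 and 4.72 in Young LV and 5.33, 5.94 and 7.12 in Old LV. It was detected in 0 of 5 Young and 3 of 6 Old mice, and the mice of the later BeadChip were the highest, at 7.12 and 7.10. The level was at least 1.32-fold higher (adjusted p = 0.000339), a call that was lost with the BeadChip as a fixed block (adjusted p = 0.0818). The chemokine gene *Ccl8* was detected in no Young mouse and had log2 levels of 6.55, 7.12 and 7.74 in Old LV (at least 2.53-fold higher, adjusted p = 0.00193). Of 45 genes listed for NF-kappaB and cytokines 24 were measured, and *Ccl8*, *Icam1* and *Ccl9* were higher (12.5%, against 4.04% of all genes). *Icam1*, an adhesion molecule for leukocytes, had log2 levels of 7.25, 7.34, 6.84, 6.24 and 6.6 in Young LV and 7.51, 7.98 and 8.61 in Old LV, without overlap (2.31-fold, adjusted p = 0.000507). *Ccl9*, a chemokine, was 2.27-fold higher (adjusted p = 0.0137). Neither *Icam1* (adjusted p = 0.0776) nor *Ccl9* (adjusted p = 0.257) passed the test with the BeadChip as a fixed block, whereas *Ccl8* did (adjusted p = 0.0399).

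The window of 250 bases before the start of *Icam1* (GRCm38.p6, chr9:21015690-21015939, plus strand, RefSeq) is printed because RAGE signals to NF-kappaB and this gene rose in mice without it. Capitals mark a kappaB sequence (GGAAATTCC, either strand, present in 0.286% of the windows) at -153 and a STAT sequence (TTCCNGGAA, present in 0.913%) at -42. The kappaB share counts windows with exactly these 9 letters and no other form of the site.
Icam1: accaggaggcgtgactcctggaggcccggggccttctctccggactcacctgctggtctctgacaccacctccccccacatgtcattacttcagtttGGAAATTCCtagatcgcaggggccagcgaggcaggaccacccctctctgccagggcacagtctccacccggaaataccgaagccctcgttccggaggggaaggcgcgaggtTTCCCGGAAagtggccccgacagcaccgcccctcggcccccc

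Neutrophil and RAGE ligand genes shared *S100a8* and *S100a9*, which encode the subunits of calprotectin. *S100a8* had log2 levels of 4.74, 5.93, 5.76, 4.55 and 4.47 in Young LV and 6.51, 7.29 and 11.19 in Old LV. The 2 Old mice of the later BeadChip held the highest values, 8.80 and 11.19, yet the other 4 Old mice also exceeded all Young mice. The difference of 2.07 on the log2 scale did not pass the test (adjusted p = 0.0552), and neither did that of *S100a9* (1.52, adjusted p = 0.0796). *Lcn2*, an iron-binding protein of neutrophil granules, was higher in the fit (3.72-fold, adjusted p = 0.012), with 5 of 6 Old mice above all Young mice, but was detected in only 1 of 5 Young mice, so that this fold too is set against values mostly at background. The list of RAGE ligands and its receptor pathway had 22 of 35 genes measured, of which *S100a1* and *S100a11* were higher and *Fn3k*, a kinase that removes sugars from glycated proteins, was lower (13.6% called, against 4.04% of all genes). With the BeadChip as a fixed block 0 of the 22 were called. *S100a1*, a calcium sensor of the heart muscle, had log2 levels of 11.57, 11.89, 11.62, 11.02 and 10.92 in Young LV and 11.74, 12.25 and 13.11 in Old LV. The highest values were those of the 2 mice on the later BeadChip, up to 13.11 (1.55-fold, adjusted p = 0.00941). *S100a11* was 1.56-fold higher (adjusted p = 0.00999), but with the BeadChip as a fixed block its difference turned to -0.03. *Lgals3*, which encodes the RAGE ligand galectin-3, missed the threshold at a log2 difference of 1.03 (adjusted p = 0.0514).

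Of 21 listed clock genes 14 were measured. *Dbp*, *Tef*, *Nr1d2* and *Tspan4* were lower in Old LV, *Clock* was higher and 9 did not pass the test (35.7% called, against 4.04% of all genes), and with the BeadChip as a fixed block 1 was called. The median log2 difference was -0.56, against -0.02 over all genes and -0.45 for the clock genes in WT. *Dbp*, a transcription factor of the clock output, had log2 levels of 12.61, 12.59, 12.75, 12.56 and 12.53 in Young LV and 8.37, 11.53 and 11.76 in Old LV. The Young values were nearly equal, including that of Young replicate 5 on BeadChip 1, while Old replicate 1 stood far below the other Old mice (3.37-fold lower, adjusted p = 0.0369). *Tef*, its close relative, had log2 levels of 9.85, 10.10, 9.90, 10.70 and 10.33 in Young LV and 7.68, 8.75 and 9.57 in Old LV, again with Old replicate 1 lowest and no overlap (2.21-fold lower, adjusted p = 0.0339). A second *Tef* probe, detected in all 11 mice, did not pass the test (log2 difference -0.16, adjusted p = 0.793). *Nr1d2*, a nuclear receptor that represses clock genes, was 1.61-fold lower (adjusted p = 0.0283) with overlapping groups. *Clock* itself was 1.57-fold higher (adjusted p = 0.0347).

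*Ciart*, a repressor of the clock, had log2 levels of 8.42, 8.43, 8.65, 8.34 and 8.41 in Young LV and 5.08, 6.87 and 8.08 in Old LV, with all Old mice lower, but its log2 difference of -1.43 did not pass the test (adjusted p = 0.222). *Per2*, another core repressor, had a log2 difference of -1.19 (adjusted p = 0.244) and *Usp2*, a deubiquitinase of the clock output, of -0.54 (adjusted p = 0.26). *Arntl*, which encodes BMAL1, lay between 4.48 and 4.71 in Young LV and between 4.47 and 6.56 in Old LV (log2 difference 0.89, adjusted p = 0.205), with its highest values in Old replicates 6 and 1. The hour of collection is not given in the sources used here, and its part in these differences was not tested. The call for *Dbp* was lost with the BeadChip as a fixed block (log2 difference -1.82, adjusted p = 0.163) or random block (adjusted p = 0.0752) and in 12 of 24 alternatives in all, and that for *Tef* with the fixed block (adjusted p = 0.219).

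**Figure D2:**
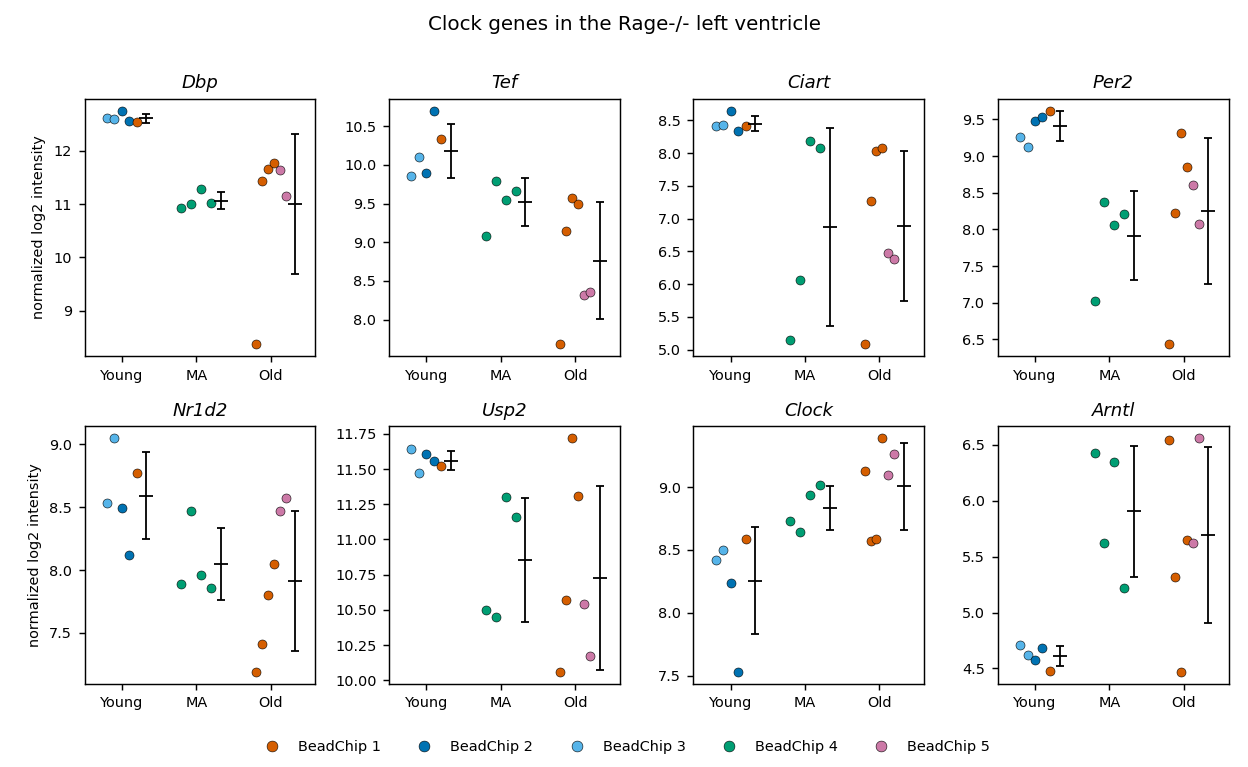
Normalized log2 intensity of 8 clock genes (vertical axes) in Young, MA and Old *Rage-/-* LV (horizontal axes), with 1 point per mouse coloured by BeadChip and a bar for the mean and SD of each age. The 5 Young mice of *Dbp* sat between 12.53 and 12.75, and Old replicate 1 at 8.37 was the lowest of the 6 Old mice, which were more spread.

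The windows of *Tef* and *Ciart* are shown as examples of clock promoters with an E-box, the site of CLOCK and BMAL1. Both are 250 bases before the start on GRCm38.p6 from RefSeq, *Tef* at chr15:81802423-81802672 on the plus strand and *Ciart* at chr3:95882229-95882478 on the minus strand. Capitals mark CACGTG, which reads alike on both strands, at -127 in *Tef* and at -116, -58 and -44 in *Ciart*. It was found in 6.02% of all windows, and 4 of the 12 measured clock genes with a window held it in at least 1 window, while *Dbp* did not.
Tef: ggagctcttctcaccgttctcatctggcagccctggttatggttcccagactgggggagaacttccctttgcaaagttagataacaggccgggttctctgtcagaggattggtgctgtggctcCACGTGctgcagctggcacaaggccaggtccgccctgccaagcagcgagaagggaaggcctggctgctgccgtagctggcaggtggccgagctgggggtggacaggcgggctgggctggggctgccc
Ciart: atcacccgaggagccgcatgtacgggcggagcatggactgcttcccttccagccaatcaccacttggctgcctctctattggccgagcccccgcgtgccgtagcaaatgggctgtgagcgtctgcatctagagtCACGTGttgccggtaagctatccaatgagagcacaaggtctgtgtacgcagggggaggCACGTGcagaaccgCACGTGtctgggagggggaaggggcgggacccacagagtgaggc

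Among called genes whose groups did not overlap, and apart from the clock, the largest falls were those of *Nrep*, *Bcl11b*, *Intu* and *Sox12*. *Nrep*, which encodes a small intracellular protein of regenerating tissue, had log2 levels of 10.48, 10.22, 10.04, 9.43 and 10.43 in Young LV and 7.70, 8.49 and 9.19 in Old LV. No Old mouse reached a Young value, and the level was 2.77-fold lower (log2 difference -1.47, SE 0.18, adjusted p = 3.21e-05). *Sox12*, a transcription factor of the embryo, had log2 levels of 8.44, 8.29, 8.28, 8.18 and 8.84 in Young LV and 6.43, 7.30 and 7.98 in Old LV, likewise without overlap (2.25-fold lower, adjusted p = 7.16e-05). Of its other probes, each detected in fewer mice, 1 had a log2 difference of -0.74 (adjusted p = 0.0845) and 1 of -0.02 (adjusted p = 0.976). *Bcl11b*, a transcription factor best known in T cells and neurons, was detected in all 5 Young mice and in 0 of 6 Old mice, and was at least 1.94-fold lower (adjusted p = 0.0102). *Intu*, which acts in the assembly of cilia, was 2.26-fold lower (adjusted p = 0.00218).

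*Wnk4*, a kinase that regulates ion transport, had log2 levels of 7.17, 7.40, 7.65, 7.71 and 7.44 in Young LV and 5.88, 6.42 and 6.52 in Old LV. The groups stood clearly apart (2.19-fold lower, adjusted p = 0.000203). *Ky*, a peptidase of the muscle Z-disc region, was 2.19-fold lower (adjusted p = 0.00999), *Tlcd2* 2.23-fold (adjusted p = 0.0203), *Snai3*, a zinc-finger repressor, 2.01-fold (adjusted p = 0.0414), and *Plcl2*, a catalytically inactive phospholipase C relative, 1.96-fold (adjusted p = 0.00358). *Rbfox1*, a splicing regulator of heart muscle and brain, was 1.97-fold lower (adjusted p = 0.0102), but its lowest values, 8.45 and 7.92, were those of the later BeadChip, and without those 2 mice the call was lost (log2 difference -0.68, adjusted p = 0.0605). *Igf2*, the imprinted fetal growth factor, was alone among 9 measured genes of the postnatal imprinted list in passing the test (11.1%, against 4.04% of all genes). Its log2 levels were 9.66, 10.10, 9.76, 10.43 and 9.80 in Young LV and 8.36, 8.91 and 9.11 in Old LV, without overlap (1.95-fold lower, adjusted p = 0.000815). With the BeadChip as a fixed block *Nrep*, *Sox12*, *Wnk4* and *Plcl2* were still called, and *Bcl11b* (adjusted p = 0.164), *Intu* (adjusted p = 0.0818), *Ky* (adjusted p = 0.23), *Tlcd2* (adjusted p = 0.206), *Snai3* (adjusted p = 0.473) and *Igf2* (adjusted p = 0.0854) were not.

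Of 44 listed collagens and matrix proteins 29 were measured, and *Fbln2* and *Eln*, which encode fibulin-2 and elastin, were higher (6.9% called, against 4.04% of all genes), while no measured collagen passed the test. *Col1a1* (log2 difference 0.08), *Col1a2* (-0.41) and *Col3a1* (-0.39) had overlapping groups. The calls for *Eln* and *Fbln2* were each lost with the BeadChip as a fixed block (adjusted p = 0.547 and 0.0884). Among 22 measured genes of matrix assembly and turnover, *Mmp3*, *Timp1* and *Lox* were higher and *Bmp1* was lower (18.2% called, against 4.04% of all genes). *Mmp3*, a matrix metalloproteinase, had log2 levels of 5.58, 5.63, 4.69, 4.82 and 5.43 in Young LV and 6.66, 7.30 and 8.23 in Old LV, without overlap. It was detected in only 1 of 5 Young mice, so that the fitted 4.38-fold (adjusted p = 0.00218) is set against values mostly at background, and the call was lost with the fixed block (adjusted p = 0.0818). *Timp1*, an inhibitor of metalloproteinases, ran from 6.24 to 9.71 in Old LV and overlapped the Young mice (2.41-fold, adjusted p = 0.0145). In the list of cell cycle arrest and secreted senescence factors, *Cdkn1a* and *Ccl8* were higher and *Gadd45a* was lower among 22 measured genes (13.6% called, against 4.04% of all genes). *Gadd45a*, a stress sensor, was 2.34-fold lower (adjusted p = 0.00813) while its group means before adjustment differed by -0.71, the groups overlapped, and its second probe did not pass the test (log2 difference -0.51, adjusted p = 0.314).

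Counts in energy metabolism and protein synthesis are read against the 4.04% of all genes called. None of 38 measured genes of fatty acid uptake and oxidation passed the limma test (10 at an unadjusted p below 0.05), and of 75 measured genes of the respiratory chain and ATP synthase *Ndufa11* was higher (1.32-fold, adjusted p = 0.0443) and *Atp5c1* lower (1.39-fold, adjusted p = 0.0203), 2.67% of the list. With the deposited normalized values 4 of the 38 were higher and 3 lower, and 6 of the 75 were higher and 5 lower. That setting called 1171 of all 13277 probes. The lowest values of *Atp5c1* were those of the later BeadChip, 12.05 and 11.91, against 13.43 to 13.56 in the other 4 Old mice, and without those 2 mice the call was lost (log2 difference -0.27, adjusted p = 0.245). Of 54 measured genes of the cytosolic ribosome 1 was lower, *Rps24* (1.85%), and of 36 of the proteasome 1, *Psmc2* (2.78%), shares near that of all genes. The glycolytic enzyme gene *Pgam1* was 2.06-fold higher (adjusted p = 0.000702). Of 40 measured interferon-inducible genes none was called in *Rage-/-* LV (5 at an unadjusted p below 0.05), with a median log2 difference of 0.09, and none of 8 atrial genes (0 at an unadjusted p below 0.05) or of 4 red blood cell genes (0 at an unadjusted p below 0.05). Red blood cell genes averaged between 9.86 and 12.46 in the 6 Old mice and between 11.61 and 12.07 in the 5 Young mice.

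**Figure D3:**
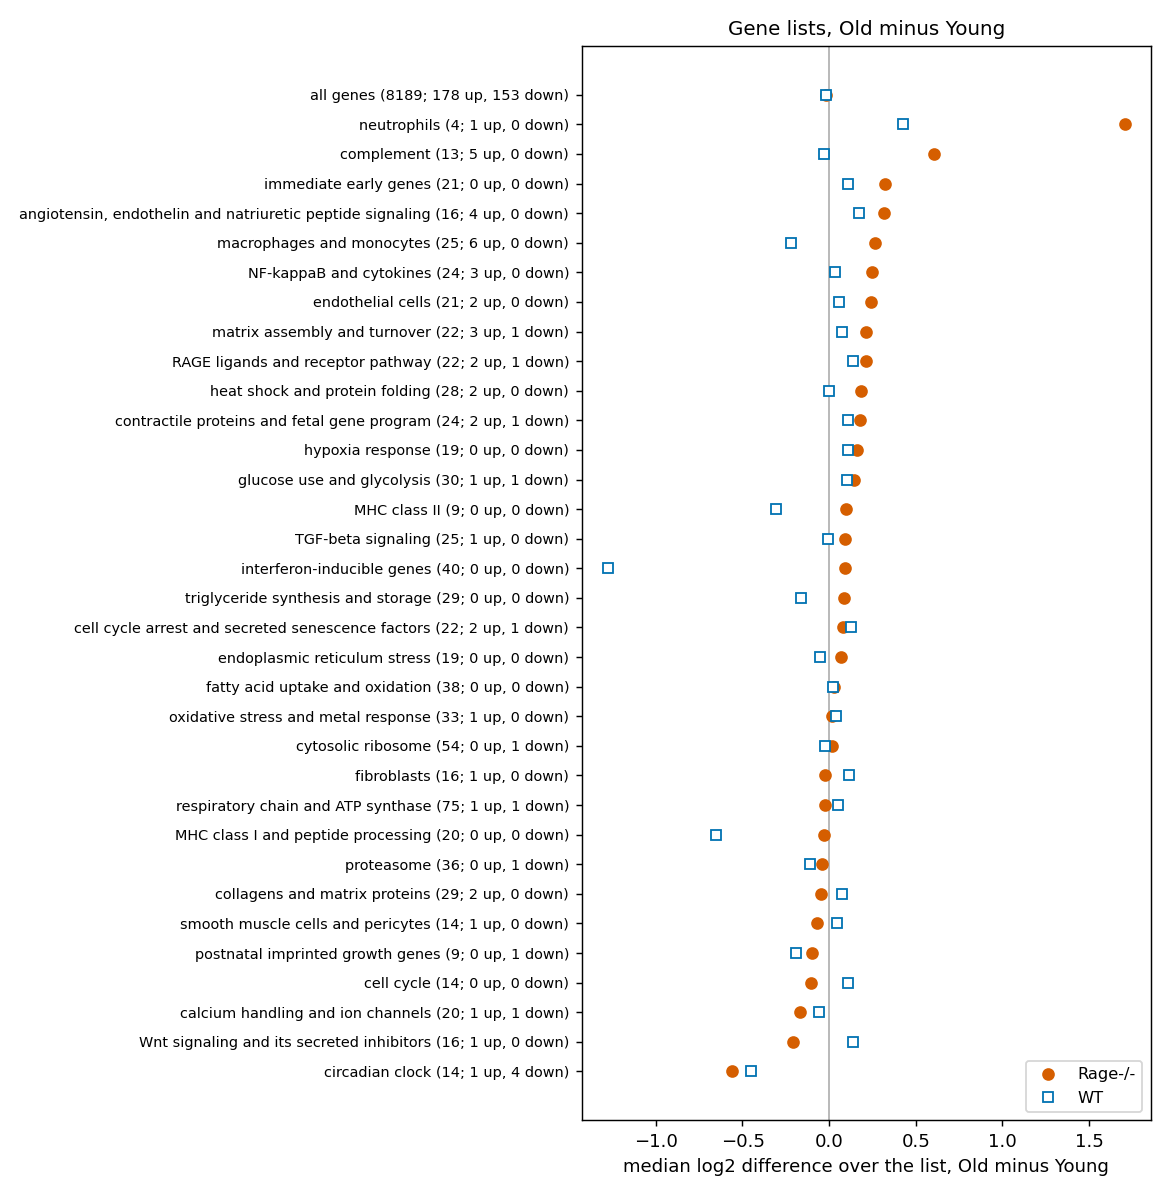
Median log2 difference between Old and Young LV (horizontal axis) of 33 gene lists and of all genes (vertical axis, with the number of measured genes and of genes called up and down in *Rage-/-* LV), for *Rage-/-* (circles) and WT (squares). Complement stood at 0.61 in *Rage-/-* and -0.03 in WT, the circadian clock at -0.56 and -0.45, and the interferon-inducible genes at 0.09 and -1.28.

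To see where the *Rage-/-* LV differed from the WT LV over the same ages, the same contrast was fitted in the 10 Old and Young WT arrays. WT LV had 114 called probes (0.859%), 46 higher and 68 lower, with a median SE of 0.22 against 0.19 in *Rage-/-*. No BeadChip held both Young and Old WT mice, so that within WT mice BeadChip and age cannot be told apart. The WT changes and the differences between genotypes given below carry this limit. Of the 492 probes called in *Rage-/-*, 456 had the same sign in WT, and the share over all probes was not counted. BeadChip 3 held Young mice of both genotypes and BeadChip 5 Old mice of both. The part of the BeadChip in the shared signs was not tested. Both genotypes called 44 probes, each with the same sign in both, which is 8.94% of the *Rage-/-* calls and 38.6% of the WT calls. The median log2 difference of probes higher in *Rage-/-* was 0.80, against 0.39 in WT, and of probes lower in *Rage-/-* -0.65, against -0.40 in WT. The *Rage-/-* values of those medians chose the probes, so their larger size is a description. *Klk1b26* (2.73), *Cdh4* (2.03), *Tmprss13* (1.85), *Cyp2b10* (1.65), *Ankrd23* (0.98) and *Igf2* (-1.16) were also called in WT, whereas the WT log2 differences of *Nppb* (1.24, adjusted p = 0.113), *Serpina3n* (1.32, adjusted p = 0.181) and *Cdkn1a* (0.77, adjusted p = 0.456) did not pass the test.

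The difference between the genotypes, tested as an interaction, was called for 30 probes (0.226%), 28 of them with the more positive change in *Rage-/-*. Of the 30, 6 were also called in *Rage-/-* LV, namely *C4b*, both *C4a* probes, *Plac8*, *Icam1* and *Ccl9*, and 24 were called in WT LV. *C4b* changed by 1.83 more in *Rage-/-* than in WT (SE 0.25, adjusted p = 0.000412), and lay between 7.51 and 7.94 in Young WT and between 6.83 and 7.74 in Old WT LV. The difference was 1.64 for *C4a* (adjusted p = 0.0143) and 1.92 for its second probe (adjusted p = 0.0211). For *Plac8* it was 1.69 (adjusted p = 0.00403), for *Ccl9* 1.69 (adjusted p = 0.0388) and for *Icam1* 1.26 (adjusted p = 0.025). Young *Rage-/-* LV had a lower mean than Young WT LV for all 6 of these probes. The means before adjustment were 6.85 against 7.69 for *Icam1*, 6.83 against 7.65 for *C4b* and 7.17 against 8.25 for *Ccl9*. They were 6.50 against 7.14 and 5.68 against 6.75 for the *C4a* probes, and 4.59 against 5.26 for *Plac8*. For *Nppb* (1.13, adjusted p = 0.392), *Serpina3n* (1.46, adjusted p = 0.323) and *Cdkn1a* (1.43, adjusted p = 0.263) the difference between genotypes did not pass the test.

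Most of the other called differences rested on a fall in WT LV, and many of these genes are induced by interferon. *Igtp*, a GTPase of the interferon response, changed by -3.44 in WT and by 0.08 in *Rage-/-* LV, and *Irgm2*, of the same family, by -2.81 and -0.06. Of the 40 measured interferon-inducible genes 18 were lower in WT, against 51 of all 8189 genes, and their WT median was -1.28. Of the 40, 12 differed between the genotypes, against 25 of all 8189 genes. *Irf7*, a regulator of the interferon response, and *Lgals3bp*, a secreted glycoprotein, differed by 2.49 (adjusted p = 0.00472) and 1.87 (adjusted p = 0.00618). Young WT LV was high for *Lgals3bp*, from 8.54 to 9.63, and Young *Rage-/-* LV was low, from 6.90 to 8.21.

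**Figure D4:**
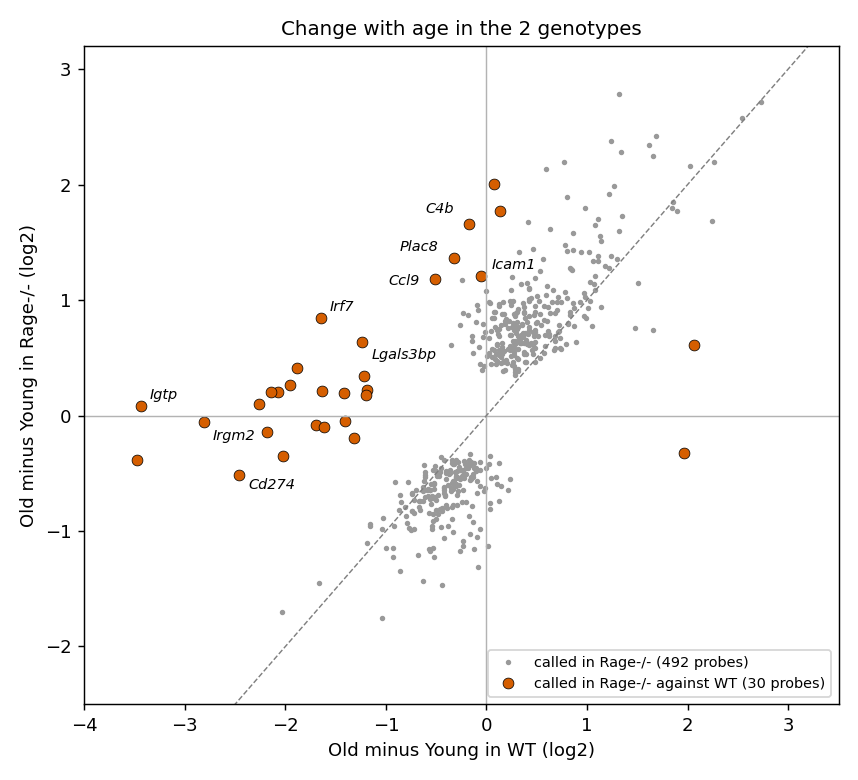
Log2 difference between Old and Young LV of each probe in WT (horizontal axis) and *Rage-/-* (vertical axis). The 492 probes called in *Rage-/-* are grey and the 30 probes that differ between the genotypes are orange, mostly near 0 in *Rage-/-* and far below 0 in WT.

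The 4 *Rage-/-* mice of the age between, MA, were all on 1 BeadChip that held no Young or Old *Rage-/-* mouse, so that BeadChip and age cannot be told apart in comparisons with them, and the comparisons below share these mice. *Nppb* had already reached 12.84 to 13.15 at 12 months, with a log2 difference of 2.43 from Young (adjusted p = 0.0012) and of -0.05 between MA and Old (adjusted p = 0.98). *Serpina3n* changed by 2.6 and then 0.18, *Cdkn1a* by 2.21 and -0.02, *Gpnmb* by 1.45 and -0.03, and *Ankrd23* by 1.53 and 0.27. *Plac8* changed by 0.13 (adjusted p = 0.85) and then 1.23 (adjusted p = 0.15), *C1qc* by -0.07 and 0.86, and *Cyp2b10* by 0.72 and 1.52 (adjusted p = 0.24). The later steps of *Plac8*, *C1qc* and *Cyp2b10* did not pass the test.

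**Figure D5:**
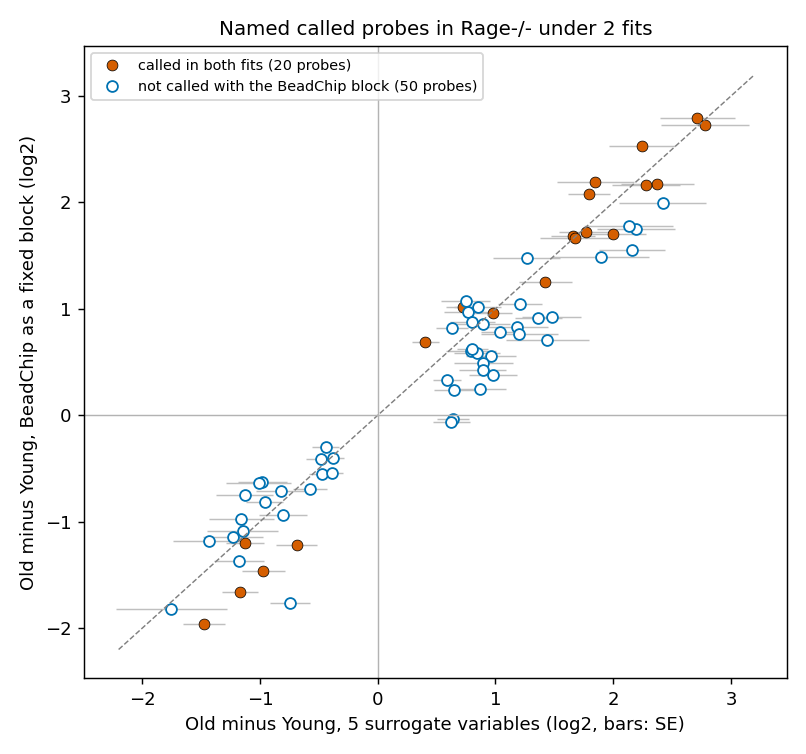
Log2 difference between Old and Young *Rage-/-* LV of 70 named called probes with 5 surrogate variables (horizontal axis, bars for the SE) and with the BeadChip as a fixed block (vertical axis). With the block 20 probes were still called and 50 were not, and most points kept their side of 0.

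The 20 probes still called with the fixed block were those of *Nppb*, *Ankrd23*, *Rcan1*, *Serpina3n*, *Tnfrsf12a*, *C4b*, *C4a* (both probes), *Ccl8*, *Gpnmb*, *Eng*, *Klk1b26*, *Tmprss13*, *Cyp2b10*, *Ndufa11*, *Nr1d2*, *Nrep*, *Sox12*, *Wnk4* and *Plcl2*. In the limma fit 35 of the 70 named called probes kept the call whichever *Rage-/-* mouse was left out. A single mouse ended the call of 7 others, Young replicate 4 for *Lcn2* (log2 difference 1.46, adjusted p = 0.0607), *Masp1* (0.74, adjusted p = 0.067) and *Timp1* (1.08, adjusted p = 0.0568), Young replicate 1 for *Ccl9* (1.06, adjusted p = 0.0541), Young replicate 2 for *Nr1d2* (-0.53, adjusted p = 0.113), Young replicate 5 for *Kcnd2* (-0.58, adjusted p = 0.0665) and Old replicate 3 for *Gadd45a* (-0.66, adjusted p = 0.0833). Either of 2 mice ended those of *Myh7*, *Cd14*, *Fcer1g*, *S100a11*, *Lox* and *Psmc2*, and any of 3 that of *Tlcd2*. For 21 probes 4 or more mice each did so, among them *Dbp* (highest adjusted p with 1 mouse left out 0.088), *Tef* (0.104), *C1qc* (0.117), *Fbln2* (0.107), *Eln* (0.165), *Snai3* (0.154), *Ptgds* (0.135) and *Edn1* (0.284). The highest such p was 0.078 for *Myh7*, 0.0621 for *Cd14* and 0.0827 for *Tlcd2*.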

How the data were processed

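Total RNA from the LV of 29 female mice was hybridised to MouseWG-6 v2.0 BeadChips. The deposited bead intensities are 1 average intensity per probe and array, exported by the authors with GenomeStudio 2011.1 and not background corrected. The deposited detection score beside each equals 1 minus its p. Normalized log2 values deposited by the authors (R 4.0.2, lumi, variance-stabilizing transformation and robust spline normalization) served as an alternative. The depth of an array is set by its brightness, and the number of arrays limits the precision.

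Of 45281 probes, 13277 were kept, those detected at p below 0.01 in 25% of arrays or more. Intensities were background corrected, quantile normalized and log2 transformed with neqc of limma 3.58.1 in R 4.3.3 (offset 16), so differences of dim probes are understated. The linear model of each probe held the 6 groups and 5 surrogate variables (of 7 found in 5 rounds of reweighted singular vectors) and tested with limma's moderated statistics. Adjusted p values are Benjamini-Hochberg over the 13277 probes, and a probe was called below 0.05. A gene is given by its brightest probe. Of the probes 11504 had 1 gene in the platform annotation, 6 had several and 1767 had none. Nothing in the labels says how mice were housed together. The p values rest on the spread left within all 6 groups, WT and MA mice included, after the 5 surrogate variables were fitted. They do not measure the unadjusted spread between Old and Young *Rage-/-* mice alone. For *Kcnd2*, for example, the SD before adjustment was 1.08 in Young and 0.75 in Old *Rage-/-* LV, and the SE of the fitted difference was 0.17.

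Named were the 12 genes with the largest rise and the 12 with the largest fall among called genes whose groups did not overlap, up to 4 called members of each of 41 gene lists, the 8 probes with the largest change in *Rage-/-* among those that differed from WT, the members of the RAGE ligand list with an unadjusted p below 0.05, all atrial, red blood cell and adipocyte genes, and *Hprt*, *Ldha*, *Adgrf5* and EGFP as checks. Clock genes that were not called, *Nppa*, *Myh6*, *Ankrd1*, the collagens, macrophage lineage genes, *Igtp*, *Irgm2* and *Nmrk2* were named after their values were seen. The samples and lists were chosen with earlier results of these data known.

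On simulated data with 100 genes changed by 1 and 100 by 2 on the log2 scale, the fit recovered 63 and 96 of them with 7 false calls. The simulated noise was smaller than the spread of the data around the group means. BeadChip shifts were drawn independently for each probe, without a brightness difference such as that of the later BeadChip. The number of false calls therefore does not carry over to the data. The replicate numbers of the titles were checked for pairing. Correlations of the deviations of same-numbered Old and Young mice were 0.07, -0.32, -0.1, -0.06 and 0.22, so the numbers were not treated as pairs. Alternatives changed the normalization, the detection filter, the surrogate variables, the BeadChip as a block, the arrays in the fit and the mouse left out. The authors' own comparisons were not used.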

Additional observations from a re-analysis of the deposited data

Results flagged for a closer look

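Of 168 groups of 5 or 6 mice examined for 1 mouse far from the others, 11 stood out by the gap of the extreme mouse to its neighbour as a share of the group's range, and chance gives about 1 in 20 groups. Young replicate 4 was the lowest for *Cd14* (4.78, share 0.878), *Hprt* (9.0, share 0.858), *Tnfrsf12a* (5.89, share 0.779) and *Kcnd2* (5.81, share 0.76). Old replicate 1 was the lowest for *Dbp* (8.37, share 0.824), *Eng* (8.69, share 0.653) and *Cdh4* (7.62, share 0.636). Old replicate 2 was the lowest for *Sfrp1* (4.80, share 0.799), *Tlr4* (4.82, share 0.694) and *Pecam1* (6.98, share 0.631). Young replicate 5 was the highest for *Ldha* (12.27, share 0.734). Young replicate 4 and Old replicate 2 were the dimmest arrays of their groups, with bright probes 2.69 and 3.03 times above background. The part of array brightness in these low values was not tested.

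The change from Young to Old differed between *Rage-/-* and WT LV in the interaction test for 8 named probes. The log2 differences, *Rage-/-* minus WT, were 1.92 and 1.64 for *C4a*, 1.83 for *C4b*, 1.69 for *Plac8*, 1.69 for *Ccl9*, 1.26 for *Icam1*, 2.49 for *Irf7* and 1.87 for *Lgals3bp*.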

How the results depend on the processing

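The count of 492 probes in *Rage-/-* was 1171 (632 higher, 539 lower) with the deposited normalized values, 775 with log2 quantile values and 1000 (482 higher, 518 lower) with detection in 75% of arrays. It fell to 195 without a filter, 303 without the 2 Old arrays on the later BeadChip, 132 (82 higher, 50 lower) with the BeadChip as a fixed and 125 (90 higher, 35 lower) as a random block, 76 (57 higher, 19 lower) in the 11 arrays alone, 297 with the replicate block and 0 within BeadChip 1. The share of higher calls, 58.9% in all arrays, was 72% with the random block, 75% in the 11 arrays alone and 48.2% with the stricter filter. Leaving out 1 mouse gave 287 (without Young replicate 4) to 794 (without Old replicate 1). Counts were within 1.5 times the first with 0, 3 or 7 surrogate variables, but the probes called were partly others. Of the 492 probes, 271 were still called with 0 surrogate variables, 335 with 3 and 335 with 7. The difference from WT, 30 probes, became 67, 82 and 19 with the first 3 settings, 17 without surrogate variables, 47 with 7 of them, 11 and 14 with the fixed and random BeadChip block, 47 without the later arrays and 13 (without Old replicate 6) to 48 (without Young replicate 4) with 1 mouse left out; the replicate block gave 37. The 114 WT calls became 352, 261 and 236, then 53 without a filter, 3169 without surrogate variables, 180 with 3, 21 with the fixed block, 438 without the later arrays, 72 with the replicate block and 100 to 324 with 1 mouse left out.

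Of 1666 alternative values of 70 named called probes, 1180 kept direction and call, 484 lost the call and 2 reversed. With both BeadChip blocks 18 probes were still called, among them *Nppb*, *Serpina3n*, *Ankrd23*, *C4b*, *Nrep* and *Sox12*. Differences that changed sign were those of *S100a11* (-0.03) and *Scara5* (-0.06) with the fixed block and, among values not called, *Tlr4* (-0.45 and -0.49), *Tlr2* (-0.38 and -0.17), *S100a10* (-0.27 and -0.59), *Ldha* (-0.16 and -0.05) and *Hprt* (-0.05), *Adgrf5* (0.09, 0.02, 0.11 and 0.09) and EGFP (0.01, 0.13, 0.14, 0.01, 0.13, 0.0012, and -0.2 to 0.08 with 1 mouse left out). The causes were not tested. These *Tlr4* values are those of its brightest probe. A second *Tlr4* probe, detected in 4 Old and 0 Young *Rage-/-* mice, was called higher in the limma fit (log2 difference 0.69, adjusted p = 0.0234). Brightness over background and 5 or 6 mice an age limit what dim probes can show.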

Other observations

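Of 21 measured endothelial markers *Pecam1* and *Eng* were higher in Old *Rage-/-* LV (9.52%, against 4.04% of all genes). *Eng*, a co-receptor for TGF-beta on endothelium, had log2 levels of 7.99, 8.17, 8.73, 8.71 and 8.14 in Young LV and 8.69, 9.16 and 9.19 in Old LV (1.65-fold, adjusted p = 0.00587). *Pecam1*, an adhesion molecule between endothelial cells, was 1.75-fold higher (adjusted p = 0.000815), with Old replicate 2 below all Young mice, while a second *Pecam1* probe, detected in all 11 mice, did not pass the test (log2 difference 0.17, adjusted p = 0.527). *Slc8a1*, the sodium-calcium exchanger of the myocyte, had log2 levels of 10.89, 10.47, 10.51, 10.61 and 10.82 in Young LV and 11.10, 11.23 and 11.37 in Old LV, without overlap (1.5-fold, adjusted p = 0.00648). *Kcnd2*, a potassium channel, was 1.68-fold lower (adjusted p = 0.0138).

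*Nmrk2*, a nicotinamide riboside kinase of muscle, was read by 3 probes that did not move alike. The brightest had a log2 difference of -0.27 (adjusted p = 0.514), and the others had 2.35 (adjusted p = 1.71e-05) and 1.38 (adjusted p = 0.00188). Among the 389 called genes, 172 had several probes, 20 of these had all probes called, and 0 had probes called in opposite directions. Further probes that did not pass the test beside a called brightest probe were those of *Fbln2* (log2 difference 0.16), *Kcnd2* (-0.26), *Psmc2* (0.31), *Rps24* (0.19 and 0.40), *Bmp1* (-0.51 and 0.17), *Myh7* (0.11 and 0.57), *Tmprss13* (1.01) and *Cdkn1a* (1.35, while another was called at 1.61), most of them detected in fewer mice.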
